A study of Rattus norvegicus with 60 samples.

Results

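The 10 genes described here are the liver's transcripts for handling drugs and other foreign compounds, and the 2 nuclear receptors that regulate many of them: Ephx1, Ces1d, Cyp1a2, Cyp2b1, Cyp2b2, Cyp3a9, Por, Nr1i2, Nr1i3 and Abcc2. They were taken by symbol from the raw count files, which list 34322 genes, and all 10 were found and passed the filter on low counts. Their levels were followed in 30 liver libraries of Sprague-Dawley rats aged 5 months. Dams had been kept in a vapor chamber with vaporized ethanol (prenatal alcohol exposure, PAE) or with room air (control) for 12 days, between gestational days 8 and 20. Stroke animals had a middle cerebral artery occlusion 2 days before dissection, and naive animals were littermates without it. The PAE stroke livers came from 4 males and 4 females, the control stroke livers from 3 males and 4 females, the PAE naive livers from 4 males and 4 females, and the control naive livers from 3 males and 4 females. The labels name no sham operation, so a stroke comparison covers the whole procedure, and nothing in them says that animals were pooled. RNA came from whole tissue, in which fewer cells of a type and less RNA per cell cannot be told apart.

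The liver clears lipophilic compounds in steps. Cytochrome P450 enzymes of the CYP1, CYP2 and CYP3 families oxidise them with electrons passed on by cytochrome P450 oxidoreductase (Por), microsomal epoxide hydrolase (Ephx1) opens the reactive epoxides that arise, and carboxylesterases such as Ces1d split esters. Conjugating enzymes then attach polar groups, and the canalicular pump Abcc2, also called MRP2, moves conjugates into bile. The pregnane X receptor (Nr1i2) and the constitutive androstane receptor (Nr1i3) sense foreign compounds and bile acids and switch on many of these genes, CYP2B genes being the usual readout of the constitutive androstane receptor. In rats, several P450 genes are strongly sex-dependent, a pattern set by the timing of growth hormone release, and inflammation lowers many P450 transcripts.

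Cyp2b1 and Cyp2b2 are neighbouring paralogues. Their sequences before the annotated gene start are shown to set the 2 neighbours side by side, taken from RefSeq on the GRCr8 assembly, while the authors mapped reads to rn7. All 10 genes had an entry in that table, with 11 starts in all, because Ephx1 has 2. Both windows are on the plus strand, Cyp2b1 at chr1:90645869-90646097 and Cyp2b2 at chr1:90722031-90722242. The windows matched at 204 of 212 aligned bases, or 96.2%, without an internal gap. These windows lie before the start, give no RNA reads and so say nothing of how reads were assigned between the genes. Capitals mark the 8 bases that differ.
Cyp2b1: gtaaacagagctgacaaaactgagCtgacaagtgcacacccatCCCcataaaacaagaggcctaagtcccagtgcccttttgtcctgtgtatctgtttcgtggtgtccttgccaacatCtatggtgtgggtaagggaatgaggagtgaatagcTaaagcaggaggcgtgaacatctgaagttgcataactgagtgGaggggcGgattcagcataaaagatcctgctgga
Cyp2b2: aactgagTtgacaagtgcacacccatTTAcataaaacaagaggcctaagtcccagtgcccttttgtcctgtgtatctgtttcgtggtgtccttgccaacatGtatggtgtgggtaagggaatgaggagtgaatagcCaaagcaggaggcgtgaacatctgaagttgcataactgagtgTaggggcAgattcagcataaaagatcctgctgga

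Ephx1 is shown as well, since it is the gene among the 10 whose response to stroke was called as different between the sexes. The windows before its starts lie on the minus strand at chr13:95275853-95276102 and chr13:95263118-95263367. Capitals mark matches to AGGTCA, the half-site that many nuclear receptors bind, on either strand.
Ephx1 start 1: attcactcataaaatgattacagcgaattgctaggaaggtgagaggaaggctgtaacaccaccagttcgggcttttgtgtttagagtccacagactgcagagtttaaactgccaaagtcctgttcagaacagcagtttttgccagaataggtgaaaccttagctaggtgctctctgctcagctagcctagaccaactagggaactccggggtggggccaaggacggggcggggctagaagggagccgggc
Ephx1 start 2: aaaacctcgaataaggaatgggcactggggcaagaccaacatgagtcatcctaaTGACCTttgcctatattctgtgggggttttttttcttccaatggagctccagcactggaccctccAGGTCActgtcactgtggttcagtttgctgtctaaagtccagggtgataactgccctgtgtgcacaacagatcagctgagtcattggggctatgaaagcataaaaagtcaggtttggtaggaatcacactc
Start 2 held 2 such matches and start 1 held 0. AGGTCA occurred on either strand in 14.1% of 33365 promoter windows, each of the 250 bases before a start. The letters TTCNNNGAA (a STAT core) occurred in 7.68% of them, GCGTG (the Ah receptor core) in 25.9% and TTGCNNAA (a C/EBP core) in 9.21%. The Cyp2b1 and Cyp2b2 windows are shorter, at 229 and 212 bases, and each held GCGTG and TTGCNNAA once. No overlap between motifs was removed, and a match says only that these letters are present.

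Total counts per liver library lay between 7.72 M and 30.4 M (M, mega), with a median of 17.4 M. Nuclear rRNA took 0.626% to 51.1% of them (median 3.06%), and 3 libraries were above 40%: PAE stroke male 2 at 42.4%, control stroke male 1 at 51.1% and control naive male 3 at 44.9%. All 12 hepatocyte markers were present in each group, and Alb alone averaged 57442 counts per M (CPM) in PAE stroke livers, so the labelled tissue and its markers went together. CPM below are counts per M of the scaled library size and are not corrected for gene length, so levels of different genes are not set against each other. Folds, standard errors (SE) and adjusted p-values come from edgeR's quasi-likelihood test with Benjamini-Hochberg adjustment over 15889 liver genes, and a gene was called at an adjusted p under 0.05.

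**Figure D1:**
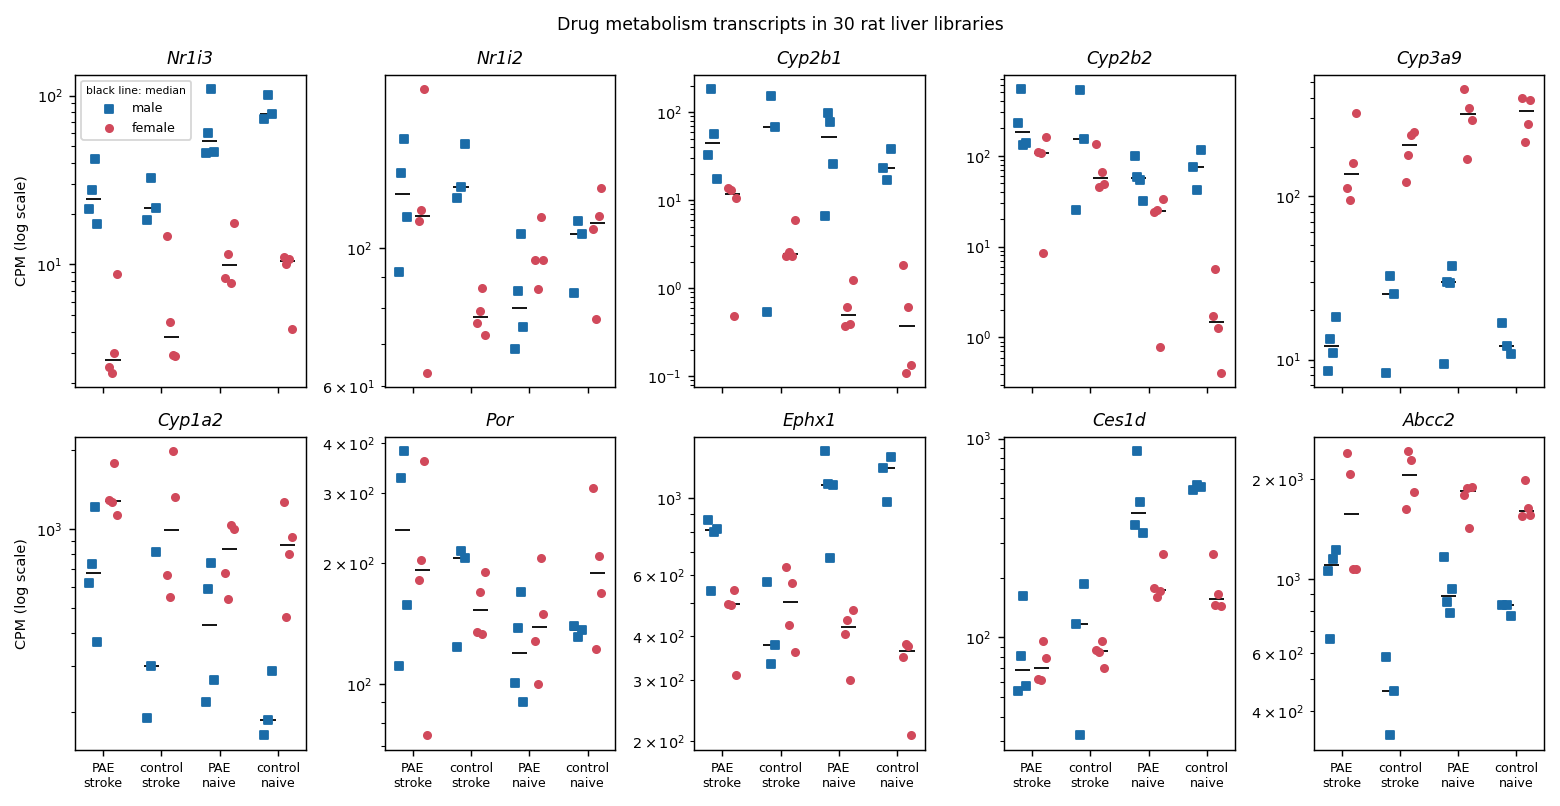
CPM on a log axis for each of the 10 genes in 30 liver libraries, with 1 point per library, squares for males, circles for females and a black line at the median of each sex. Nr1i3, Cyp2b1, Cyp2b2 and Ephx1 lay higher in naive males than in naive females, Cyp3a9 and Abcc2 lay lower, and Ces1d lay lower in stroke than in naive livers of the same exposure and sex, without overlap.

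The first comparison asks how hepatic drug metabolism transcripts stood 2 days after stroke in each prenatal group. Ces1d fell after stroke in both groups, by 3.88-fold in PAE livers. Nr1i3, the constitutive androstane receptor, fell in PAE livers, while Cyp2b2, a P450 that this receptor is known to induce, was higher after stroke in both groups. In PAE livers 1 of the 10 genes was called higher and 2 lower, in controls 1 higher and 1 lower. Over all genes tested, 7% were called in PAE livers (4.74% higher, 2.26% lower) and 2.95% in control livers (2% higher, 0.95% lower).

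Of the 2 receptors, the constitutive androstane receptor was the one called. Nr1i3 ranged over 2.28, 13.1 and 42.3 CPM (lowest, median and highest of 8) in PAE stroke livers, against 7.76, 31.6 and 109.8 CPM in PAE naive livers. Each of the 8 PAE stroke livers lay below the mean of PAE naive livers of its own sex, although the groups overlapped. The sexes differ in level, and females also overlapped among themselves. PAE stroke female 4, at 8.73 CPM, lay above PAE naive females at 7.76 and 8.28 CPM. The fold was 2.57-fold lower, with a log2 change of -1.36 (SE 0.350) and an edgeR adjusted p of 0.0186. In controls, Nr1i3 ranged over 2.87, 14.8 and 32.4 CPM in 7 stroke livers, against 4.16, 11.01 and 100.5 CPM in 7 naive livers. There 6 of 7 stroke livers were below their sex's naive mean, and the log2 change of -1.15 (SE 0.373) was not called (edgeR adjusted p = 0.101). The exception was control stroke female 1, at 14.8 CPM. Without that liver the control change was -1.59 and was called (edgeR adjusted p = 0.00714), the 1 call in 30 fits that each left out 1 liver. DESeq2 on all libraries also called the control change (-1.15, adjusted p = 0.0265), 1 of 2 calls in 10 other settings. The authors' deposited table gives Nr1i3 a log2 fold change of -1.12 (adjusted p 0.000134) in PAE livers and -0.80 in controls, the second without an adjusted p.

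The pregnane X receptor moved little. Nr1i2 averaged 119.6 ± 35.8 CPM in PAE stroke livers and 90.5 ± 14.7 CPM in PAE naive livers (SD, n = 8 each), a log2 difference of 0.41 (SE 0.150, edgeR adjusted p = 0.0998) that was not called. It averaged 101 ± 29.6 CPM in control stroke livers and 103 ± 16.8 CPM in control naive livers (SD, n = 7 each). Without PAE stroke female 4, whose 63.0 CPM was the lowest of its group, the PAE change was 0.50 and was called (edgeR adjusted p = 0.0157). That was the 1 call in 30 fits that each left out 1 liver, and 0 of 10 other settings called it.

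Among the P450 genes, Cyp2b2 was the one called. It ranged over 8.47, 134 and 546 CPM in PAE stroke livers, against 0.776, 32.5 and 99.5 CPM in PAE naive livers, and 7 of 8 stroke livers were above their sex's naive mean. The increase was 4.45-fold, with a log2 change of 2.15 (SE 0.645) and an edgeR adjusted p of 0.0447. In controls it ranged over 25.4, 66.2 and 532 CPM in stroke livers, against 0.406, 5.66 and 115 CPM in naive livers. That increase was 10.7-fold, with a log2 change of 3.42 (SE 0.763) and an edgeR adjusted p of 0.0141, with 6 of 7 stroke livers above their sex's naive mean and the groups overlapping. The PAE call lay close to the threshold, and without a sex term neither call was kept (edgeR adjusted p = 0.221 in PAE livers and 0.389 in controls). The PAE call was kept in 10 of 30 fits that each left out 1 liver, and the control call in 27 of 30. The authors' deposited table gives smaller log2 fold changes for Cyp2b2, 1.07 (adjusted p 0.0117) in PAE livers and 0.82 (adjusted p 0.0479) in control livers.

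Cyp2b1, the paralogue, moved in the same direction without a call in either exposure group. Its log2 change was 2.21 (SE 0.772, edgeR adjusted p = 0.0868) in PAE livers and 1.84 (SE 0.824, edgeR adjusted p = 0.267) in controls. Levels ran over 0.485, 15.7 and 186 CPM in PAE stroke livers, against 0.369, 3.92 and 97.4 CPM in PAE naive livers. In controls they ran over 0.540, 2.58 and 152 CPM after stroke and 0.109, 1.84 and 38.1 CPM without it. The lowest control stroke value was that of a male, control stroke male 1, with 3 counts where the other 2 males had 2504 and 699. The 2 genes are paralogues, how the counting divided or dropped any shared reads was not tested, and each value is uncertain on that account.

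Cyp3a9, a CYP3A enzyme, averaged 92.8 ± 109 CPM in PAE stroke livers and 171 ± 173 CPM in PAE naive livers (SD, n = 8 each). The log2 change of -0.97 (SE 0.301) had an edgeR adjusted p of 0.0502, just outside the threshold, and the authors' deposited table gives -0.80 (adjusted p 0.015). In control livers the log2 change was 0.03 (SE 0.322, edgeR adjusted p = 0.986), an average of a mean change of 0.76 in males and -0.70 in females, and it was -0.63 at the lowest among the other settings. Cyp1a2, the P450 that clears caffeine, changed by 0.71 in PAE livers and 0.71 in controls (SE 0.327 and 0.353), and neither was called (edgeR adjusted p = 0.209 and 0.330). Por changed by 0.73 (SE 0.267, edgeR adjusted p = 0.0992) in PAE livers and 0.03 (SE 0.287, edgeR adjusted p = 0.984) in controls.

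Ces1d, a serine carboxylesterase, had the smallest adjusted p of the 10 in both groups. It ranged over 53.6, 70.3 and 161 CPM in PAE stroke livers, against 161, 299.6 and 863 CPM in PAE naive livers. All 8 stroke livers were below their sex's naive mean. The change was 3.88-fold lower, with a log2 change of -1.95 (SE 0.275) and an edgeR adjusted p of 5.6e-05. In controls it ranged over 32.1, 86.6 and 186 CPM in stroke livers, against 144, 263 and 585 CPM in naive livers, with all 7 stroke livers below their sex's naive mean. There it was 3.30-fold lower, with a log2 change of -1.72 (SE 0.295) and an edgeR adjusted p of 0.00135. The authors' deposited table also has Ces1d lower, at log2 -1.67 (adjusted p 7.62e-11) and -1.27 (adjusted p 1.73e-05). Both calls were kept in all 30 fits that left out 1 liver. Ces1d belongs to a family of close paralogues, so the split of reads between them is uncertain.

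Neither the epoxide hydrolase nor the bile pump was called when the sexes were averaged. Ephx1 changed by -0.15 (SE 0.169, edgeR adjusted p = 0.679) in PAE livers and -0.42 (SE 0.183, edgeR adjusted p = 0.238) in controls. Abcc2 changed by 0.02 (SE 0.164, edgeR adjusted p = 0.962) and -0.27 (SE 0.177, edgeR adjusted p = 0.488). The median log2 change of the 10 genes was 0.21 in PAE livers and 0.00 in controls, where that of all genes tested was 0.00 and -0.01. Their median absolute change was 0.85 and 0.57, against 0.20 and 0.20 over all genes.

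**Figure D2:**
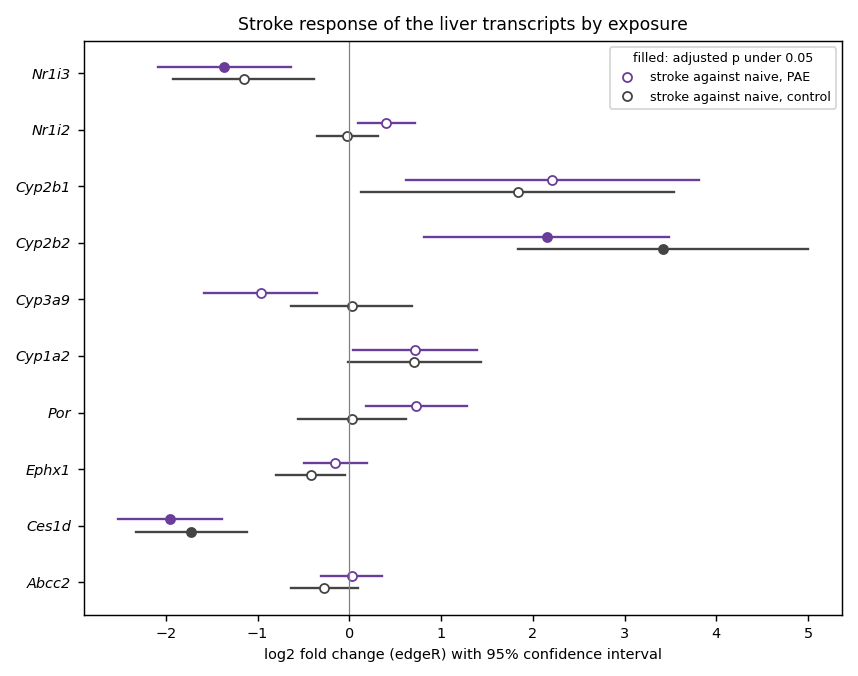
Log2 fold change of stroke over naive for each gene, with its 95% confidence interval, in PAE livers (upper point of each pair) and control livers (lower point), where filled points had an adjusted p under 0.05. Ces1d lay near -1.95 and -1.72 and Cyp2b2 near 2.15 and 3.42, and the intervals of both groups overlapped for every gene.

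Markers of neutrophils were higher in stroke livers, at low levels. Summed neutrophil markers reached 2.65 to 9.47 CPM in PAE stroke livers, against 1.04 to 2.65 CPM in PAE naive livers, and 2.70 to 7.39 CPM in control stroke livers, against 0.857 to 3.26 CPM in control naive livers. Of the 10 markers listed, 5 were tested, of which 4 were higher in PAE and 3 in control livers, and 1, 0, 1 and 2 had no count in these 4 groups in that order. Pericentral hepatocyte markers, whose zone carries much of the P450 content, summed to 1772 to 4570 CPM in PAE stroke livers, against 2565 to 6872 CPM in PAE naive livers. In controls they summed to 1672 to 5235 CPM after stroke and 2910 to 7430 CPM without it, and all 10 had counts in each group. Median sums were 3602 CPM in PAE stroke and 4796 CPM in PAE naive livers. In controls the medians went the other way, at 3992 CPM after stroke and 3728 CPM without it. The marker with the highest mean in these sums, Cyp2e1, is itself a P450. It averaged 1618 CPM in PAE stroke, 2904 CPM in PAE naive, 1548 CPM in control stroke and 2440 CPM in control naive livers. Gulo, the second highest, averaged 573, 683, 534 and 546 CPM in that order. Of these 10 pericentral markers, 0 were higher and 2 lower in PAE livers (median log2 -0.16), and 0 were called in controls (median 0.18). Cyp2e1, the main ethanol-oxidising P450 and one of these markers, was lower after stroke in PAE livers (log2 -0.89, SE 0.196, edgeR adjusted p = 0.00524) but not called in controls (log2 -0.70, SE 0.211, edgeR adjusted p = 0.0706). The other lower one in PAE livers was Axin2 (log2 -0.51, edgeR adjusted p = 0.0435). Of 10 periportal hepatocyte markers, 4 were higher in PAE livers (median log2 0.43) and 3 in controls (median 0.59), and of the 12 general hepatocyte markers 3 and 1 were higher, with 0 lower in either list. Among all genes tested, 4.74% were higher and 2.26% lower in PAE livers, and 2% higher and 0.95% lower in controls. The part of these markers in the changes above was not tested.

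The second comparison asks whether prenatal ethanol altered these transcripts. None of the 10 genes was called, after stroke or without it, and 0% of all genes tested were called in either comparison (1030 and 347 genes had an unadjusted p under 0.05; DESeq2 called 12 and 0). After stroke, Abcc2 had the smallest adjusted p of the 10. It ranged over 662, 1109 and 2390 CPM in PAE stroke livers, against 339, 1618 and 2420 CPM in control stroke livers. The groups overlapped, 6 of 8 PAE livers were above the control stroke mean of their sex, and the log2 difference was 0.42 (SE 0.172, 95% confidence interval 0.07 to 0.78, edgeR adjusted p = 0.737). By sex the values went opposite ways. PAE stroke males had 662 to 1222 CPM, against 339 to 582 CPM in control stroke males, without overlap and with a mean log2 difference of 1.15. In females that difference was -0.30, with 1069 to 2390 CPM in PAE stroke females, against 1618 to 2420 CPM in control stroke females. Nuclear rRNA took 51.1%, 17.9% and 28.7% of counts in the control stroke males. In the PAE stroke males it took 1.28%, 42.4%, 2.14% and 1.09%, and the liver at 42.4% had the 662 CPM. With the log2 rRNA share as a covariate, Abcc2 changed by -0.05 per doubling of that share (edgeR adjusted p = 0.9998). The part of rRNA in the male difference of Abcc2 after stroke was not itself tested. Without stroke, Cyp2b2 differed most, by 1.52 (SE 0.706, interval 0.06 to 2.98, edgeR adjusted p = 1). That came from females, whose mean log2 difference was 3.39, with 24.0, 25.2, 0.776 and 33.5 CPM in PAE naive females, against 1.70, 5.66, 1.27 and 0.406 CPM in control naive females. In males the difference was -0.34, with 31.4 to 99.5 CPM in PAE naive males, against 42.4 to 115 CPM in control naive males.

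The confidence intervals give the sizes that the spread between livers still allows. The interval of the PAE difference in Nr1i2 ran from -0.08 to 0.56 after stroke and from -0.51 to 0.13 without it. For Ephx1 it ran from -0.01 to 0.72 and from -0.28 to 0.44. For Cyp2b1 it ran from -0.76 to 2.21 and from -1.50 to 2.19, so differences of that size in Cyp2b1 were not detectable at this spread. The other log2 differences after stroke were -0.23 for Nr1i3, 0.26 for Cyp2b2, -0.50 for Cyp3a9, 0.51 for Cyp1a2, 0.41 for Por and -0.26 for Ces1d. Without stroke they were -0.01 for Nr1i3, 0.49 for Cyp3a9, 0.51 for Cyp1a2, -0.30 for Por, -0.03 for Ces1d and 0.13 for Abcc2. Median log2 differences of the 10 genes were 0.30 after stroke and 0.10 without it, beside 0.02 and 0.00 over all genes.

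The stroke response itself was not shown to differ between PAE and control livers. Again 0 of the 10 genes and 0% of all genes were called for the interaction (455 had an unadjusted p under 0.05, and DESeq2 called 0). The stroke change in PAE minus that in control was -0.99 for Cyp3a9 (SE 0.441, interval -1.90 to -0.09), 0.70 for Por (SE 0.391, interval -0.10 to 1.51) and -0.21 for Nr1i3 (SE 0.504, interval -1.25 to 0.83). For Ces1d it was -0.23 (SE 0.391, interval -1.04 to 0.57), for Cyp2b2 -1.27, for Cyp2b1 0.38, for Nr1i2 0.42, for Ephx1 0.27, for Abcc2 0.30 and for Cyp1a2 0.00. Each of the 10 had an edgeR adjusted p of 1. So the call of Nr1i3 in PAE livers and its absence in controls is not shown to be a difference between them.

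The third comparison asks how stroke acted in each sex. In males, Ces1d, Nr1i3 and Ephx1 fell, and in females Ces1d fell while Cyp2b1 and Cyp2b2 rose. Counted over all genes, 5.75% were called in males (3.4% higher, 2.35% lower) and 5.93% in females (4.07% higher, 1.86% lower). Of the 10 genes, 0 were higher and 3 lower in males, and 2 were higher and 1 lower in females. Ephx1 was the gene among the 10 whose response was called as different between the sexes.

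The epoxide hydrolase transcript fell in males after stroke. In PAE stroke males Ephx1 stood at 864, 539.8, 801 and 816 CPM, and in control stroke males at 573, 334 and 377 CPM. In PAE naive males it stood at 1362, 1097, 672 and 1088 CPM, and in control naive males at 1217, 975 and 1307 CPM. All 7 stroke males were below the naive male mean, and only the lowest PAE naive male, at 672 CPM, fell within the range of stroke males. The fall was 1.95-fold, with a log2 change of -0.96 (SE 0.185) and an edgeR adjusted p of 0.00156.

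In females the epoxide hydrolase was not called. Ephx1 stood at 495, 493, 545 and 310.1 CPM in PAE stroke females and at 632, 432, 569 and 359.9 CPM in control stroke females. Naive females had 406, 447, 300.5 and 476 CPM with PAE and 349, 380.1, 377 and 208 CPM as controls. Of the stroke females, 7 of 8 were above the mean of naive females of their own exposure, and the groups overlapped. The log2 change was 0.39 (SE 0.170, edgeR adjusted p = 0.194). The male change minus the female change was -1.35 (SE 0.250, edgeR adjusted p = 0.0261), 1 of 20 genes (0.126%) called for that difference, of which 0.0566% were higher and 0.0692% lower.

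The rRNA share differed between these groups of Ephx1 values. Nuclear rRNA averaged 11.7% in PAE stroke males (median 1.71%, highest 42.4%) and 32.6% in control stroke males (median 28.7%, highest 51.1%). It averaged 14.4% in PAE naive males (median 14.2%, highest 18.8%) and 16.2% in control naive males (median 2.15%, highest 44.9%). In females it averaged 7.72% with PAE and 1.85% in controls after stroke, and 4.25% with PAE and 1.95% in controls without it. By description, the mean log2 change of Ephx1 was -0.48 in PAE males and -1.45 in control males, 0.18 in PAE females and 0.60 in control females. Leaving out the 3 libraries above 40% rRNA left the sex difference at -1.37 but ended its call (edgeR adjusted p = 0.0841). In the male comparison Ephx1 stayed called in each of the 30 fits without 1 liver and in 8 of 8 other settings. With the log2 rRNA share as a covariate, Ephx1 changed by -0.01 per doubling of that share (edgeR adjusted p = 0.9998), and 0 of the 10 genes were called for the share. The sex difference was also lost without PAE stroke male 3 (-1.35, edgeR adjusted p = 0.0501), PAE naive male 4 (-1.33, 0.0573), control naive female 4 (-1.27, 0.0527) or control naive male 3 (-1.30, 0.0767).

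**Figure D3:**
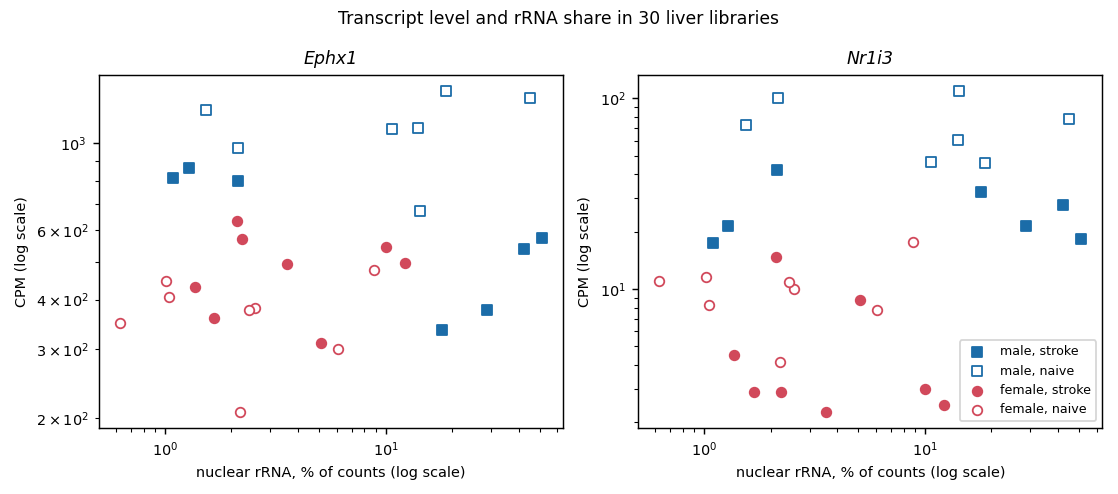
CPM of Ephx1 and Nr1i3 against the nuclear rRNA share of counts, both on log axes, for 30 liver libraries, with squares for males, circles for females, filled for stroke and open for naive. Stroke males lay below naive males for Nr1i3 across the whole range of rRNA shares, and the lowest Ephx1 values among stroke males, 334 and 377 CPM, were those of control stroke males.

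Nr1i3 fell in males to values that did not overlap those of naive males. It stood at 21.4, 27.5, 42.3 and 17.5 CPM in PAE stroke males and at 18.4, 32.4 and 21.5 CPM in control stroke males. Naive males had 45.7, 60.4, 109.8 and 46.6 CPM with PAE and 72.6, 100.5 and 77.9 CPM as controls. The change was 2.88-fold lower, with a log2 change of -1.53 (SE 0.369) and an edgeR adjusted p of 0.0133, and without the 3 libraries above 40% rRNA it was -1.46 and no longer called (edgeR adjusted p = 0.0927).

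In females the receptor was low already. PAE stroke females had 2.47, 2.28, 3.00 and 8.73 CPM and control stroke females 14.8, 4.53, 2.90 and 2.87 CPM. Naive females had 8.28, 11.6, 7.76 and 17.6 CPM with PAE and 11.01, 10.01, 10.8 and 4.16 CPM as controls, so 7 of 8 stroke females lay below the naive female mean. The log2 change of -0.98 (SE 0.355) was not called (edgeR adjusted p = 0.109). It was called without control stroke female 1 (-1.43, edgeR adjusted p = 0.00671) and without PAE stroke female 4 (-1.32, edgeR adjusted p = 0.0259), each the highest of its group. The male change minus the female change was -0.55 (SE 0.506, interval -1.59 to 0.50, edgeR adjusted p = 0.893).

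Both CYP2B transcripts rose in females, whose naive levels were low. Cyp2b2 stood at 110.3, 106.5, 8.47 and 161 CPM in PAE stroke females and at 136, 45.7, 66.2 and 48.7 CPM in control stroke females. Naive females had 24.0, 25.2, 0.776 and 33.5 CPM with PAE and 1.70, 5.66, 1.27 and 0.406 CPM as controls. Of the 8 stroke females, 7 were above the naive female mean, the exception being PAE stroke female 3 at 8.47 CPM. The rise was 13.1-fold, with a log2 change of 3.71 (SE 0.715) and an edgeR adjusted p of 0.00261, and it was called in all 30 fits without 1 liver. In males the log2 change of 1.86 (SE 0.689) was not called (edgeR adjusted p = 0.12), with 231, 546, 130.3 and 138 CPM in PAE stroke males and 25.4, 532 and 152 CPM in control stroke males. Naive males had 99.5, 58.6, 54.4 and 31.4 CPM with PAE and 74.9, 42.4 and 115 CPM as controls. The difference between the sexes was -1.86 (interval -3.82 to 0.10, edgeR adjusted p = 0.712).

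Cyp2b1 rested on few counts in females. PAE stroke females had 13.9, 13.04, 0.485 and 10.5 CPM, and control stroke females 2.34, 2.58, 2.31 and 5.91 CPM. Naive females had 0.369, 0.613, 0.388 and 1.23 CPM with PAE and 1.84, 0.109, 0.614 and 0.135 CPM as controls, which are 1 to 39 counts per library. The increase was 8.34-fold, with a log2 change of 3.06 (SE 0.862) and an edgeR adjusted p of 0.0373, it was kept in 19 of 30 fits without 1 liver, and PAE stroke female 3 was again the low one. In males, PAE stroke livers had 32.4, 186, 56.3 and 17.5 CPM and control stroke livers 0.540, 152 and 67.8 CPM, against 6.62, 97.4, 78.4 and 26.1 CPM in PAE naive males and 23.5, 17.01 and 38.1 CPM in control naive males. The male log2 change was 0.99 (SE 0.720, edgeR adjusted p = 0.491).

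Ces1d fell in both sexes without overlap between stroke and naive livers. It ranged over 32.1, 80.3 and 186 CPM in 7 stroke males, against 337, 551 and 863 CPM in 7 naive males, 5.44-fold lower, with a log2 change of -2.44 (SE 0.303) and an edgeR adjusted p of 1.05e-05. In females it ranged over 61.1, 81.8 and 95.5 CPM in 8 stroke livers, against 144, 168 and 263 CPM in 8 naive livers, 2.35-fold lower, with a log2 change of -1.23 (SE 0.269) and an edgeR adjusted p of 0.00632. The male change minus the female change was -1.21 (SE 0.392, interval -2.02 to -0.41), which was not called (edgeR adjusted p = 0.373).

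The other 5 genes were called in neither sex. Nr1i2 changed by 0.46 in males (SE 0.162, edgeR adjusted p = 0.09), with 7 of 7 stroke males above the naive male mean, and by -0.08 in females (SE 0.149, edgeR adjusted p = 0.835). Por changed by 0.69 and 0.07 (edgeR adjusted p = 0.167 and 0.933), Cyp1a2 by 0.86 and 0.56 (0.161 and 0.364), Cyp3a9 by -0.15 and -0.79 (0.854 and 0.122) and Abcc2 by -0.35 and 0.10 (0.281 and 0.81), males given before females. Median log2 changes of the 10 genes were 0.16 in males and 0.08 in females, beside -0.01 and 0.00 over all genes. The male change minus the female change was 0.54 for Nr1i2, 0.63 for Por, 0.30 for Cyp1a2, 0.63 for Cyp3a9, -0.45 for Abcc2 and -2.07 for Cyp2b1 (edgeR adjusted p between 0.576 and 0.950). Its median over the 10 genes was -0.50, beside -0.01 over all genes. For the response to PAE, 0 of the 10 genes and 0% of all genes were called as different between the sexes (1315 had an unadjusted p under 0.05; DESeq2 called 4). The PAE difference in males minus that in females was 0.80 for Abcc2 (SE 0.243, interval 0.302 to 1.296, edgeR adjusted p = 0.533), -1.98 for Cyp2b2 (SE 0.941, interval -3.93 to -0.04, edgeR adjusted p = 0.598), 0.83 for Cyp1a2 and -0.42 for Nr1i2. For the other 6 genes it lay between -0.20 (Ces1d) and 0.24 (Ephx1), with Cyp2b1 at -0.12, Nr1i3 at 0.05, Por at 0.19 and Cyp3a9 at 0.20.

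**Figure D4:**
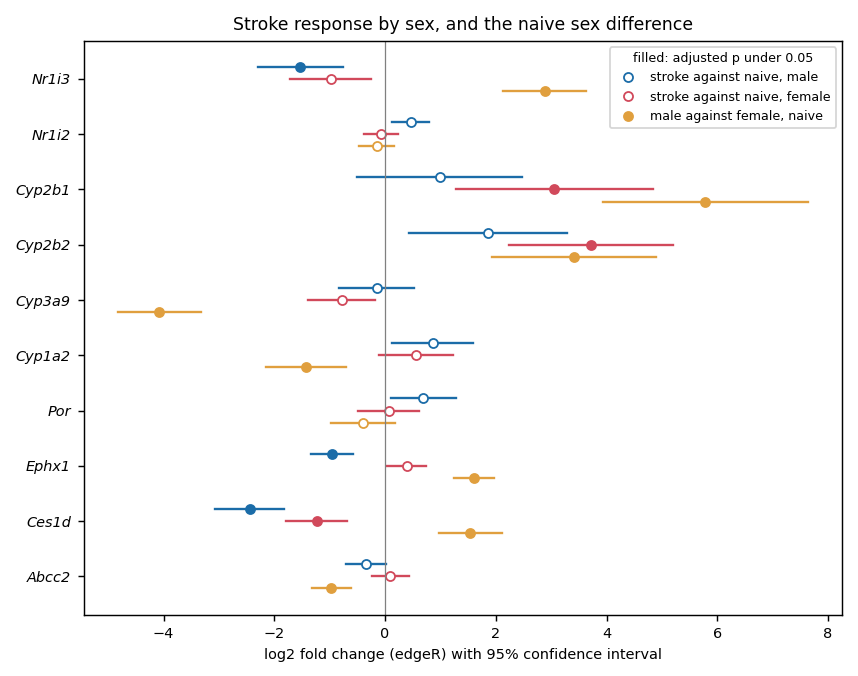
Log2 fold changes with 95% confidence intervals for stroke over naive in males (upper point of each set), stroke over naive in females (middle) and naive males over naive females (lower), where filled points had an adjusted p under 0.05. Ephx1 lay at -0.96 in males and 0.39 in females after stroke, and 8 of the 10 genes were called between the naive sexes.

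The fourth comparison sets naive males against naive females. Of the 10 genes, 5 were higher in males and 3 lower, where 14.9% of all genes were called (7.46% higher, 7.43% lower). The constitutive androstane receptor and both CYP2B enzymes, together with Ephx1 and Ces1d, were higher in males, and Cyp3a9, Cyp1a2 and Abcc2 were higher in females. The receptor Nr1i2 and the electron donor Por were not called. Of the 10 pericentral hepatocyte markers, 7 were lower in naive males and 0 higher (median log2 -0.67), and of the 10 periportal ones 3 were lower and 0 higher (median -0.11). Among the pericentral ones, Oat differed by -1.75 (edgeR adjusted p = 1.88e-05) and Cyp2e1 by -0.60 (edgeR adjusted p = 0.0444), and the part of these markers in the sex differences was not tested. Each of the 8 calls held in all 30 fits without 1 liver.

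Nr1i3 ranged over 45.7, 72.6 and 109.8 CPM in 7 naive males, against 4.16, 10.4 and 17.6 CPM in 8 naive females. The sexes did not overlap, and the male level was 7.38-fold higher, with a log2 change of 2.88 (SE 0.365) and an edgeR adjusted p of 2.29e-06. Cyp2b1 averaged 41.0 ± 33.8 CPM in naive males and 0.662 ± 0.593 CPM in naive females (SD, n = 7 and 8), without overlap (log2 5.78, SE 0.895, edgeR adjusted p = 5.3e-05). Cyp2b2 averaged 68.1 ± 30.3 CPM in naive males and 11.6 ± 13.6 CPM in naive females (log2 3.41, SE 0.719, edgeR adjusted p = 0.00162), with 1 naive female at 33.5 CPM inside the male range.

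Ephx1 averaged 1103 ± 232 CPM in naive males and 368 ± 84.8 CPM in naive females, 3.03-fold higher in males and without overlap (edgeR adjusted p = 7.61e-08). Ces1d averaged 537 ± 174 CPM in naive males and 186 ± 48.5 CPM in naive females (log2 1.54, SE 0.278, edgeR adjusted p = 0.000219), also without overlap. Females were higher for Cyp3a9, at 20.9 ± 11.3 CPM in naive males and 318 ± 97.8 CPM in naive females, so that males were 16.9-fold lower, with a log2 change of -4.08 (SE 0.361) and an edgeR adjusted p of 4.0e-09. Cyp1a2 averaged 351 ± 225 CPM in naive males and 839.5 ± 271 CPM in naive females (log2 -1.43, SE 0.350, edgeR adjusted p = 0.00515), and the sexes overlapped. Abcc2 averaged 884 ± 134 CPM in naive males and 1712 ± 199 CPM in naive females, without overlap (log2 -0.97, SE 0.174, edgeR adjusted p = 0.000147). The median log2 difference of the 10 genes was 0.69, beside 0.00 over all genes.

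Within groups, the 10 genes were also followed from liver to liver, after the mean of each of the 8 exposure, stroke and sex groups had been removed. Of 45 pairs, 4 had a Benjamini-Hochberg adjusted p under 0.05 by permutation within groups (100000 resamples, two-sided, n = 30). Por and Nr1i2 went together most closely, at Pearson r 0.825 (permutation p = 0.00013, adjusted p = 0.00293) and Spearman rho 0.705 (permutation p = 0.00052, adjusted p = 0.0117). Cyp1a2 rose and fell with both, at r 0.563 with Nr1i2 (permutation p = 0.0001, adjusted p = 0.00293, rho 0.709, permutation p = 0.00014, adjusted p = 0.0063) and r 0.570 with Por (permutation p = 0.00066, adjusted p = 0.0099, rho 0.633, permutation p = 0.00091, adjusted p = 0.0137). Ephx1 and Cyp3a9 went opposite ways, at r -0.609 (permutation p = 0.00343, adjusted p = 0.0386) and rho -0.641 (permutation p = 0.00167, adjusted p = 0.0188). Without the 2 libraries farthest from the median of the first gene, r was 0.734, 0.566, 0.653 and -0.629 for these pairs in that order. The receptor Nr1i3 was in none of the 4 pairs. With another scaling of the libraries (RLE), 4 pairs again had an adjusted p under 0.05. These libraries share depth and scaling, whose part in the correlations was not otherwise tested. Without the 3 libraries above 40% rRNA, the Ephx1 and Cyp3a9 pair stood at -0.54 (permutation adjusted p = 0.139). There Cyp2b2 and Nr1i2 stood at -0.66 (permutation adjusted p = 0.00975) and Ces1d and Cyp1a2 at 0.66 (permutation adjusted p = 0.0485).

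**Figure D5:**
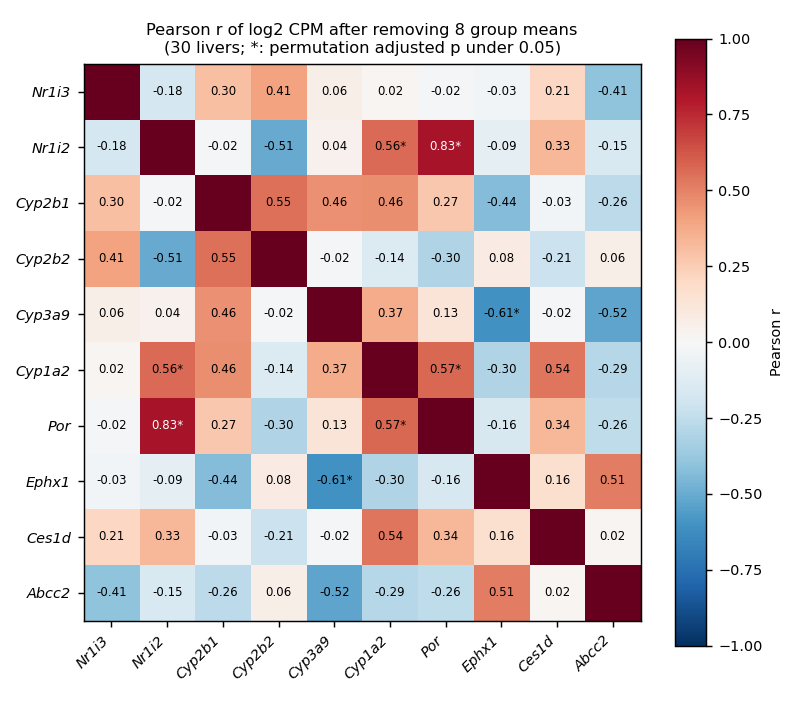
Pearson r between each pair of the 10 genes over 30 livers, from log2 CPM after the mean of each of 8 groups was removed, with a star where the permutation adjusted p over 45 pairs was under 0.05. The block of Nr1i2, Por and Cyp1a2 had r between 0.563 and 0.825, and Ephx1 and Cyp3a9 had -0.609.

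As a description, the genes outside the 10 most like 3 of them were looked for among 11396 genes, by Pearson r of the same residuals over 30 livers. For Nr1i3 they were Rnd2 (r 0.757), LOC102555396, Mfsd3, Znhit1 and Eif2b4 (r 0.715). For Cyp2b1 they were Slc1a2 (r 0.812), Chp1, Naa60, Gja1 and LOC681544 (r 0.754). For Ces1d they were LOC291863 (r 0.849), Cd14, Paqr3, Adhfe1 and Ptpdc1 (r 0.777).

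Other genes of the pathway moved with stroke in part. Over all genes tested, 7% were called for stroke in PAE livers and 2.95% in controls. By sex the shares were 5.75% in males, 5.93% in females and 0.126% for the difference between them. The counts of this list and of those below stand beside these shares. Of 29 other CYP1 to CYP3 genes tested, 4 were higher and 2 lower in PAE livers, and 0 were higher and 1 lower in controls. Cyp2c13 (log2 2.45, edgeR adjusted p = 0.00231) and Cyp1a1 (log2 2.88, edgeR adjusted p = 0.0117), an Ah receptor target, were among the higher in PAE, and Cyp2j4 was lower in controls (log2 -0.69, edgeR adjusted p = 0.0411). By sex, 0 rose and 4 fell in males, and 7 rose and 0 fell in females, with Cyp2b3, a further CYP2B gene, at log2 1.27 in females (edgeR adjusted p = 2.23e-05). The male change minus the female change was called for Cyp2b3 (log2 -1.18, edgeR adjusted p = 0.039) and Cyp2c24 (edgeR adjusted p = 0.039). Cyp2b3 averaged 725 ± 179 CPM in stroke males and 648 ± 45.8 CPM in naive males, and 763 ± 113 CPM in stroke females and 317 ± 120 CPM in naive females. Cyp2c24 lay at 0.628 CPM or less in every female, so no fold is given.

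Esterases near Ces1d behaved unevenly. Among 31 other oxidation, reduction and hydrolysis genes, 4 rose and 4 fell in PAE livers and 2 rose and 2 fell in controls. The carboxylesterase Ces1f fell in both (log2 -0.95, edgeR adjusted p = 0.000746 in PAE and log2 -0.85, edgeR adjusted p = 0.00728 in controls), and Ces1c fell in PAE livers (log2 -1.23, edgeR adjusted p = 0.00323). Ces2c (log2 0.89, edgeR adjusted p = 0.000758) and Ces4a (log2 0.89, edgeR adjusted p = 0.0081) rose there. In males 3 rose and 4 fell, in females 5 rose and 0 fell, and the sexes differed for Ces1f (log2 -1.21, edgeR adjusted p = 0.039) and the aflatoxin aldehyde reductase Akr7a3 (log2 -1.73, edgeR adjusted p = 0.0261). Akr7a3 averaged 28.2 ± 10.8 CPM in stroke males and 89.7 ± 31.3 CPM in naive males, and 35.2 ± 4.75 CPM in stroke females and 35.9 ± 8.79 CPM in naive females.

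Conjugation and transport genes were called in both directions. The shares called over all genes were 7% in PAE livers, 2.95% in controls, 5.75% in males and 5.93% in females. Of 25 glucuronide and sulphate transfer genes, 2 rose and 2 fell in PAE livers and 0 in controls, with Ugt2b17 at log2 1.31 (edgeR adjusted p = 1.5e-05) and Ugt1a3 at -1.27 (edgeR adjusted p = 0.00395). In males 1 rose and 4 fell, including Ugt1a1, which glucuronidates bilirubin (log2 -1.14, edgeR adjusted p = 0.0034), and in females 3 rose and 3 fell. Ugt1a genes share exons, so reads cannot be fully assigned among them. Of 25 glutathione, acetyl and methyl transfer genes, 4 rose and 1 fell in PAE livers and likewise 4 and 1 in controls, with Nnmt among those rising in both (log2 1.51, edgeR adjusted p = 0.00134, and 1.61, edgeR adjusted p = 0.00294). Of 17 other transporters, 2 rose and 2 fell in PAE livers and 1 rose in controls, the efflux pump Abcg2 rising in both (log2 1.68, edgeR adjusted p = 9.26e-05, and 1.18, edgeR adjusted p = 0.023). In males 3 transporters fell, Abcc3 (log2 -1.42, edgeR adjusted p = 0.0188), Abcb1b and Slco1a4.

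Receptors and cofactors other than Nr1i2 and Nr1i3 were higher after stroke where they were called. Of 26 tested, 3 rose in PAE livers and 2 in controls. Ppargc1a, a coactivator of nuclear receptors, rose in PAE livers (log2 2.79, edgeR adjusted p = 0.00095) and in controls (log2 1.88, edgeR adjusted p = 0.0465). Rxra, the partner with which both Nr1i2 and Nr1i3 bind DNA, rose in PAE livers (log2 0.49, edgeR adjusted p = 0.0223). Of 10 haem genes, 2 rose in PAE livers, Hmox1 (log2 1.01, edgeR adjusted p = 0.0167) and Ppox (log2 0.51, edgeR adjusted p = 0.0299), and 0 were called in controls. In both PAE against control comparisons and in the interaction, 0 genes of these 7 lists were called.

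Between naive males and naive females, 12 of the 29 other CYP genes were higher in males and 3 lower. The share called over all genes was 14.9% (7.46% higher, 7.43% lower). Cyp2c11, the male-specific P450 of rat liver, averaged 1317 ± 225 CPM in naive males and 0.149 ± 0.179 CPM in naive females, and Cyp2c12, the female-specific one, 70.7 ± 38.1 CPM in naive males and 2194 ± 282 CPM in naive females (log2 -4.95, edgeR adjusted p = 5.04e-10). After stroke Cyp2c11 averaged 793 ± 309 CPM in males and 0.319 ± 0.203 CPM in females. Cyp2c12 then averaged 115 ± 92.8 CPM in males and 3694 ± 553 CPM in females. Of the 26 receptor genes, 1 was higher and 4 lower in naive males, Ppara being the higher one (log2 0.81, edgeR adjusted p = 0.000563).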

How the data were processed

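Raw read counts per gene were deposited for 60 libraries of liver and mesenteric adipose tissue, 30 of each. The submitters' processing notes name HISAT2 and HTSeq, with Trimmomatic and DESeq2, and the build rn7; versions are not given in the sources used here. Per the labels' protocols, libraries were stranded total RNA after Ribo-Zero depletion. From the authors' deposited DESeq2 tables, log2 fold changes and adjusted p-values are quoted only where named. In all, 90 columns of the authors' normalised values were not used.

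Liver counts were fitted with edgeR 4.0.16 (R 4.3.3, limma 3.58.1): TMM scaling, filterByExpr by 8 groups (minimum count 10), robust glmQLFit with 1 mean for each of these groups, and two-sided contrasts averaging the other factors equally. Genes with an adjusted p under 0.05 over 15889 genes were called. Log2 CPM for correlations used a prior count of 2. Permutations were drawn within groups. Sequence windows and motif letters were read from RefSeq tables (GRCr8) and aligned with Biopython 1.88. Statistics were tested on simulated data.

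The genes, pathway lists and marker lists were chosen with earlier results of these data known. All 10 genes are named in each comparison, and at most 4 called genes per list, those with the smallest p, plus a few set pathway genes. Leave-one-out fits, DESeq2 1.42.0, RLE scaling, no filter, no sex term, the compared groups alone, title-number blocks, omission of libraries above 40% nuclear rRNA, and, chosen after seeing the data, the rRNA share as covariate were alternatives. Replicates are separate libraries by label. The labels do not say that they come from separate litters, so p-values measure the spread between these libraries. The 42 pairs of libraries of the same group differed by 27.4 to 772 in chi-square per degree of freedom, so none was a copy. The smallest p that the permutations can give is 1e-05.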

Additional observations from a re-analysis of the deposited data

Results flagged for a closer look

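In 5 of 60 sets of 4 libraries of 1 gene, exposure, stroke status and sex, 1 library lay far from the other 3 by Dixon's criterion, where chance gives about 1 in 20. Nr1i3 gave 3 of the 5. Control stroke female 1 had 14.8 CPM of Nr1i3, against 2.87 to 4.53 CPM in the other 3, and PAE stroke female 4 had 8.73 CPM, against 2.28 to 3.00 CPM. Control naive female 4 had 4.16 CPM of Nr1i3, against 10.01 to 11.01 CPM in its group. Ces1d stood at 262 CPM in PAE naive female 4, against 161 to 177 CPM in the other 3. Cyp2b1 stood at 5.91 CPM in control stroke female 4, against 2.31 to 2.58 CPM.

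Among the 10 genes, Ephx1 was the 1 whose stroke response was called as different between the sexes (20 of all genes were), with the male change minus the female change at -1.35 on the log2 scale. The call was lost in 4 of 30 fits without 1 liver and without the 3 libraries above 40% nuclear rRNA (edgeR adjusted p = 0.0841).

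Mesenteric adipose tissue, which no comparison here uses, also gave counts. Ces1d had a median of 1009 CPM there (465 to 1576, n = 30), against 153 CPM in liver (32.1 to 863, n = 30). Por had a median of 119.6 CPM (72.8 to 167) and Ephx1 of 87.6 CPM (46.2 to 179) in adipose tissue. Cyp2b1 had a median of 2.55 CPM and Nr1i3 of 2.06 CPM in adipose tissue. Cyp1a2, Cyp2b2, Cyp3a9, Nr1i2 and Abcc2 were at 3 counts or fewer in 30, 26, 22, 25 and 21 of 30 adipose libraries, in that order. The tissues were scaled separately, and no test was run between them.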

How the results depend on the processing

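Of 3850 log2 values of the 10 genes under alternatives, 3657 kept direction and call, 50 lost a call, 29 gained one, 114 changed sign while uncalled and 0 changed sign while called. Ces1d kept its call in all 4 stroke comparisons under every alternative run. DESeq2 called 6 of the 10 genes in PAE stroke against PAE naive livers (3 by edgeR), and over all genes 736 for stroke in controls (468), 12 for PAE in stroke livers (0), 88 for the sex difference of the stroke response (20) and 4 for that of the PAE response (0). Without a sex term, 580 genes and 1 of the 10 were called for stroke in PAE livers (1112 and 3), and 225 genes and 1 of the 10 for stroke in controls (468 and 2). There Nr1i3 in PAE livers lost its call (adjusted p 0.397). Without the 3 libraries above 40% nuclear rRNA, 461 genes were called for stroke in males (914), 0 genes and 0 of the 10 for the sex difference of the stroke response (20 and 1), 1 gene for PAE in stroke livers and 1 for the interaction. With the rRNA share as a covariate, chosen after seeing the data, 9 genes were called for that sex difference.

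Leaving out 1 liver at a time gave, for stroke in PAE livers, 789 to 1260 genes and 2 to 5 of the 10. For stroke in controls it gave 279 (without control naive male 3) to 679 genes and 1 to 3 of the 10, for stroke in males 607 (without control naive male 1) to 1245 genes and 3 to 4 of the 10, and for stroke in females 614 (without control naive female 3) to 1106 genes and 2 to 4. The sex difference of the stroke response gave 0 (without control naive female 4 or control naive male 3) to 30 genes and 0 to 1 of the 10. PAE against control in stroke livers and the sex difference of the PAE response gave 0 to 1 gene each. The cause of these shifts was not tested. Cyp2b2 in control livers lost its call without control naive male 1 (adjusted p 0.0502), control naive male 2 (0.0548) or control stroke male 2 (0.0536).

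The labels give the title numbers no meaning. Deviations of 15 same-code stroke and naive pairs had r between -0.247 and 0.375, over 0.1 in 7 of 8 PAE pairs and 2 of 7 control pairs, and 17 of 30 libraries went best with their own number, a hint of pairing from the data and not from the design. Since not every pair was over 0.1, the fits without a block were kept. With the title code as a replicate block, 540 genes were called for stroke in controls and Nr1i3 there had a log2 change of -1.29 (adjusted p 0.00189) and was called, as was Cyp1a2 in PAE livers (0.76, adjusted p 0.0302). With the title number as a block, Cyp2b2 in PAE livers stood at 2.07 (adjusted p 0.0593), Cyp3a9 there at -1.05 (adjusted p 0.0238) and Nr1i2 in males at 0.46 (adjusted p 0.0499). The fit on the compared groups alone equals that on all groups for the interaction and the sex differences and has no value there, nor has dropping the sex term for sex comparisons.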
